A study of Mus musculus with 10 samples.

Results

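The E2F transcription factor family was followed in RNA-seq libraries of serum-starved NIH3T3 cells, a mouse fibroblast line. The family was taken as the 8 genes named E2f1 to E2f8, of 45232 gene entries in all, and each of the 8 was matched by its Ensembl identifier. Every library came from a knockout of Lin37, a subunit of the MuvB complex, and the cells had spent 60 h without serum before RNA was extracted. There were 2 knockout lines, each a single cell clone made with a Cas9 nickase: the exon 4 clone, with InDels at exon 4 of Lin37, and the exon 6 clone, with InDels at exon 6. Both groups of a clone therefore carried the same Lin37 mutation. KO cells held an episome expressing luciferase, and rescue cells held the same kind of episome expressing wild-type Lin37. By the study's methods, cells with an episome were kept under hygromycin B, doxycycline induced the insert together with GFP, and some Lin37 was made even without induction. The exon 4 clone gave 2 KO and 2 rescue libraries and the exon 6 clone 3 and 3, in which library 3 was a technical replicate of biological replicate 2 and was averaged with it. Each comparison over both clones thus set 4 KO against 4 rescue replicates, and the comparison asked which E2F genes changed when Lin37 was missing from quiescent cells. Nothing in the sources used here says how far the biological replicates of a clone were separate cultures, so the p-values measure the spread between these samples.

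E2F proteins bind DNA together with a DP partner, and they switch genes of DNA replication and cell division on or off. E2F1, E2F2 and E2F3 are the activators, which the retinoblastoma protein holds back until a cell leaves G1. E2F4 and E2F5 bind the pocket proteins p107 and p130 and sit in the DREAM complex with MuvB in quiescent cells, while E2F6 represses without a pocket protein, together with Polycomb proteins. E2F7 and E2F8 are atypical: they bind DNA without a DP partner and repress genes in S and G2 phase. Several E2F genes are themselves E2F targets.

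Levels are given as RPKM, a read count divided by gene length and library size, after each library was rescaled by the median of its ratios to all libraries. The rescaling factors ran from 0.324 to 2.70, so the deposited columns differed widely in scale. Lin37 itself averaged 0.315 ± 0.0681 (SD, n = 4) in KO and 3.58 ± 1.46 (SD, n = 4) in rescue, where RNA from the episome is included. The highest KO replicate had 0.417 and the lowest rescue replicate 2.12, so all matched their label of KO or rescue. The labels of clone and replicate number were not checked by this level. Fibroblast identity was checked with 8 marker genes, of which 7 reached 1 RPKM in every replicate. The summed level of 3 leukocyte markers was 0.676 to 1.36 in KO and 0.794 to 1.49 in rescue, and the highest of the 3, Cd68, reached 1.35. The 4 epithelial markers summed to at most 0.537 in any replicate, the 3 endothelial markers to at most 0.184 and the 3 muscle markers to 0.189 to 0.350 in KO and 0.0917 to 0.235 in rescue. No marker was at 0 in all replicates, and what part the differences in such markers have in the results was not tested. In bulk RNA, a change in the number of cells that express a gene and a change in RNA per cell cannot be told apart.

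In rescue cells, which stand for the quiescent state with Lin37, E2f4 was by far the most abundant family member. It averaged 6.55 ± 2.08 RPKM (SD, n = 4), 6.24 times the level of E2f1, the next gene, at 1.05 ± 0.328 (SD, n = 4), and the ranges of E2f4 and E2f1 did not overlap. E2f3 followed at 0.897 ± 0.204 (SD, n = 4), with a range that overlapped that of E2f1, and E2f5 at 0.419 ± 0.103 (SD, n = 4), below E2f3 in all 4 replicates. The remaining genes were scarce. E2f7 averaged 0.0462 ± 0.0213, E2f2 0.0324 ± 0.0422 and E2f8 0.0223 ± 0.0301 RPKM (SD, n = 4), and neighbours among these overlapped. In KO cells the order of the first 4 genes was the same and none of these 4 overlapped its neighbour, but E2f4 was only 2.09 times above E2f1. E2f7, E2f2 and E2f8 came next in KO, with overlapping ranges from 0.0844 to 0.267 RPKM.

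**Figure D1:**
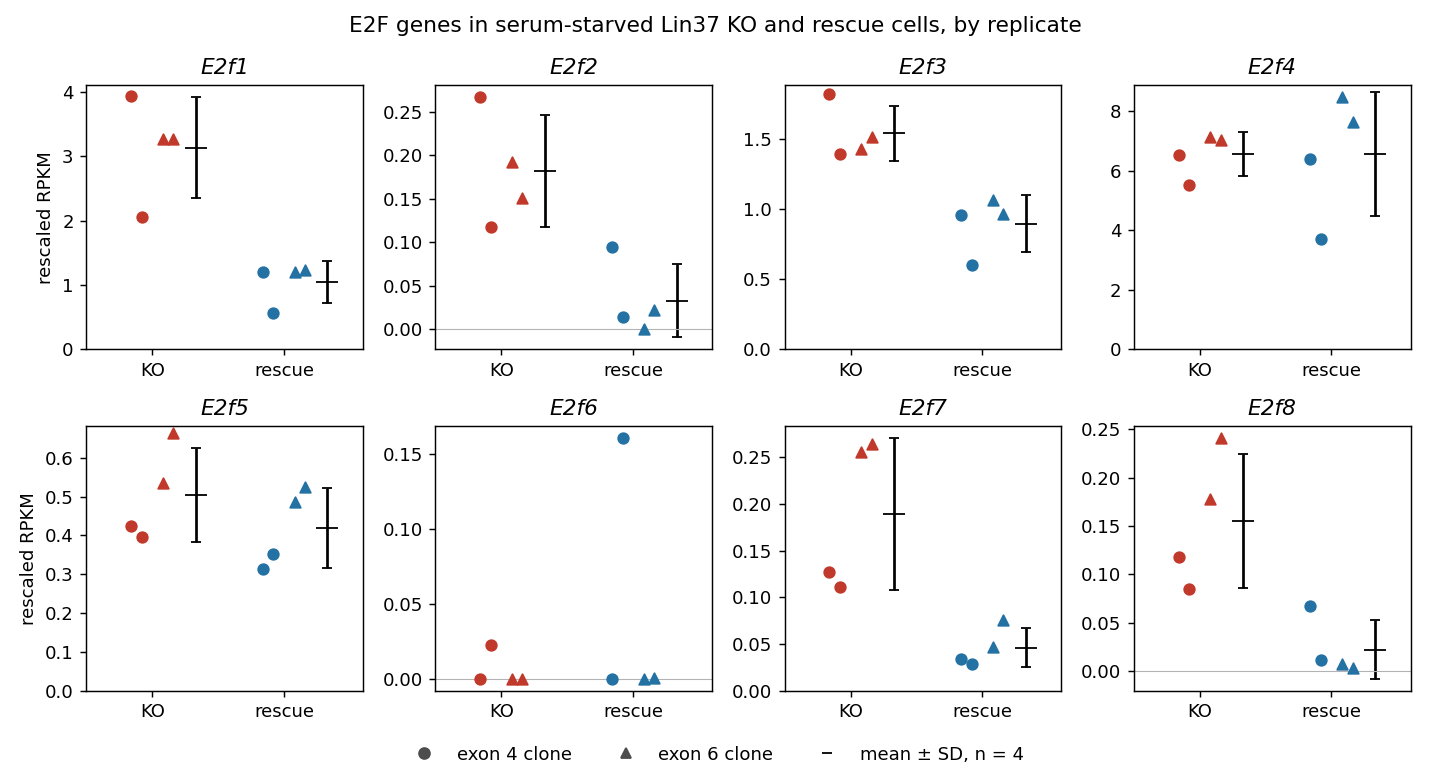
Rescaled RPKM of the 8 E2F genes on linear axes, one panel per gene, with 1 point for each replicate of the exon 4 clone (circles) and the exon 6 clone (triangles) and the mean ± SD of the 4 replicates beside each group, except for E2f6, which was mostly listed at 0. All KO points lie above all rescue points for E2f1, E2f2, E2f3, E2f7 and E2f8, while the groups overlap for E2f4, E2f5 and E2f6.

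Each of the 3 activator genes was higher in every KO replicate than in every rescue replicate, and E2f1 passed the test. Across all genes, 1.61% of the 16866 tested were called higher in KO at an adjusted p under 0.05, and 0.083% were called lower. Of the 8 members, 6 reached the minimum mean of 0.1 RPKM over the 8 replicates needed for this test, and E2f1 alone of these was called. With RPKM as deposited, without rescaling, the median change of all genes moved from -0.03 to 0.64 on the log2 scale and 5 members were called. Groups that did not overlap, with KO above, were seen for 5 of all 8 members and for 3.11% of the genes tested, and the reverse order for no member and 1.4% of the genes. An unadjusted limma p under 0.05 with KO higher was given to E2f1, E2f2, E2f3 and E2f7, and to 5.06% of the genes. E2f2 and E2f7 reached the minimum only through their KO replicates, so their place among the tested genes is no support for a difference.

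E2f1, the activator named first in the family and a gene that both starts S phase and can trigger cell death, lies on chromosome 2 at 154559407 to 154569892, minus strand, of GRCm38. In KO libraries its level was 3.94 and 2.05 RPKM in the exon 4 clone and 3.27, 3.43 and 3.08 in the exon 6 clone, the last 2 being the technical pair. In rescue libraries it was 1.20 and 0.558 in the exon 4 clone and 1.20, 1.36 and 1.11 in the exon 6 clone. Every KO library stood above every rescue library, and the pair of exon 4 libraries with the number 2 was the lowest of its group on both sides. The mean was 3.13 ± 0.785 in KO against 1.05 ± 0.328 in rescue (SD, n = 4), 2.98 times higher. On the scale of log2(RPKM + 0.5) the change was 1.23 with a standard error of 0.20 and a 95% interval of 0.78 to 1.68, higher in KO in 4 of 4 pairs (limma, Benjamini-Hochberg adjusted p = 0.0158). This size of change ranked E2f1 at place 90 of the 16866 genes tested. The call was lost when genes without a minimum level were added to the test (limma adjusted p = 0.111) and when any 1 of the 4 exon 6 clone replicates was left out (limma adjusted p from 0.0606 to 0.0711), while the size stayed between 1.05 and 1.37 without any 1 replicate.

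E2f3, the activator needed for proliferation of fibroblasts, lies on chromosome 13 at 29906575 to 29986063, minus strand. Its level was 1.82 and 1.39 RPKM in the KO libraries of the exon 4 clone and 1.43, 1.66 and 1.37 in those of the exon 6 clone. In rescue libraries it was 0.955 and 0.601 in the exon 4 clone and 1.07, 1.04 and 0.887 in the exon 6 clone. The groups did not overlap in any library, and the gap between the lowest KO and the highest rescue library was smaller than for E2f1. The means were 1.54 ± 0.197 and 0.897 ± 0.204 (SD, n = 4), a ratio of 1.72. The change of 0.55 on the log2 scale had a standard error of 0.13 and did not pass the test over all genes (limma, Benjamini-Hochberg adjusted p = 0.107). It passed with the technical replicates entered as separate libraries (limma adjusted p = 0.0352), a setting that counts 2 libraries of one culture as 2 samples. An antisense gene, Gm11365, overlaps E2f3 and had at most 0.166 RPKM in any library; whether the counting used strand is not given in the sources used here, so reads of the pair cannot be told apart.

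E2f2, the third activator, lies on chromosome 4 at 136172394 to 136196057, plus strand, and was scarce. KO libraries held 0.267 and 0.118 RPKM in the exon 4 clone and 0.192, 0.178 and 0.125 in the exon 6 clone. Rescue libraries held 0.0943 and 0.0133 in the exon 4 clone, and 0.0441 in library 2 of the exon 6 clone, whose library 1 was listed at 0 and whose library 3 was at 2.11e-05. All KO libraries were above all rescue libraries, with the closest approach between the exon 4 clone's KO library 2 and rescue library 1. The means were 0.182 ± 0.0645 and 0.0324 ± 0.0422 (SD, n = 4). On the log2(RPKM + 0.5) scale, which understates changes of scarce genes, the change was 0.36 with a standard error of 0.12 (limma, Benjamini-Hochberg adjusted p = 0.347).

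Of the 3 repressor genes, E2f4 and E2f5 were tested and not called, and E2f6 was below the minimum level, so it could not be called. Across all genes tested, 1.61% were called higher in KO and 0.083% lower. KO and rescue overlapped for each of the 3, as they did for most genes: KO lay wholly above rescue for 3.11% and wholly below for 1.4%. E2f4, the main E2F of quiescent cells, lies on chromosome 8 at 105297663 to 105305370, plus strand. It was at 6.52 and 5.53 RPKM in the KO libraries of the exon 4 clone and at 7.14, 5.99 and 8.07 in those of the exon 6 clone. Rescue libraries had 6.39 and 3.71 in the exon 4 clone and 8.48, 5.98 and 9.26 in the exon 6 clone. The 2 groups covered each other, and the lowest and the highest of all libraries were both rescue libraries. The means were 6.56 ± 0.734 in KO and 6.55 ± 2.08 in rescue (SD, n = 4), with KO higher in 2 of 4 pairs. The change of 0.05 on the log2 scale had a 95% interval of -0.34 to 0.44 (limma, Benjamini-Hochberg adjusted p = 0.958), and its sign turned when single replicates of the exon 4 clone were left out.

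E2f5, the second pocket protein partner, lies on chromosome 3 at 14578641 to 14606309, plus strand. Its level was 0.424 and 0.395 RPKM in the exon 4 clone's KO libraries and 0.534, 0.775 and 0.552 in those of the exon 6 clone. Rescue libraries had 0.312 and 0.352 in the exon 4 clone and 0.487, 0.542 and 0.510 in the exon 6 clone. Within each clone KO was above rescue on average, but the libraries sorted by clone first, and over both clones the groups overlapped. The means were 0.504 ± 0.122 and 0.419 ± 0.103 (SD, n = 4). KO was higher in 4 of 4 pairs, which was true of 8.96% of genes tested, and the log2 change was 0.13 with a 95% interval of -0.08 to 0.33 (limma, Benjamini-Hochberg adjusted p = 0.757). The end of E2f5 overlaps 1810022K09Rik, which had 0.545 to 1.26 RPKM in these libraries.

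E2f6, the Polycomb-linked repressor, lies on chromosome 12 at 16810963 to 16839742, plus strand, and was listed at 0 in 7 of the 10 libraries. The 3 others were the exon 4 clone's KO library 2 at 0.0222 RPKM, its rescue library 2 at 0.160, and the exon 6 clone's rescue library 2 at 0.000404. All 3 carry the library number 2 and they are from both genotypes. None of 12 RNA polymerase II subunit genes and none of 9 SF3A and SF3B splicing genes was at 0 in any library. Whether the zeros of E2f6 are true or a failed estimate cannot be told from RPKM. As listed, E2f6 added at most 0.160 RPKM to any sum of the repressors given here. If its zeros are a failed estimate, those sums are too low by an unknown amount. It stayed below the minimum in every comparison, and a two-sided exact permutation test of 4 against 4 replicates gave p = 0.714 on the values as listed.

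The atypical members were scarce in all libraries. E2f7 did not pass the test over all genes, and E2f8 was below the minimum level for it over both clones. E2f7 lies on chromosome 10 at 110745439 to 110787384, plus strand. Its KO libraries had 0.127 and 0.111 RPKM in the exon 4 clone and 0.255, 0.185 and 0.343 in the exon 6 clone. Its rescue libraries had 0.0337 and 0.0285 in the exon 4 clone and 0.0466, 0.0434 and 0.108 in the exon 6 clone. No rescue library reached a KO library, although library 3 of the exon 6 clone's rescue was close to library 2 of the exon 4 clone's KO. The means were 0.189 ± 0.0817 and 0.0462 ± 0.0213 (SD, n = 4), a ratio of 4.10, and the log2(RPKM + 0.5) change was 0.33 with a standard error of 0.11 (limma, Benjamini-Hochberg adjusted p = 0.304). The antisense gene 1700020G17Rik overlaps E2f7, and it was highest in the exon 4 clone's rescue libraries, at 0.166 and 0.435 RPKM, where E2f7 was lowest.

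E2f8 lies on chromosome 7 at 48866429 to 48881596, minus strand. Its KO libraries had 0.118 and 0.0844 RPKM in the exon 4 clone and 0.178, 0.149 and 0.333 in the exon 6 clone. Its rescue libraries had 0.0673 and 0.0113 in the exon 4 clone and 0.00702, 0.00733 and 0 in the exon 6 clone. All KO libraries were above all rescue libraries, and the gap was wider in the exon 6 clone. The means were 0.155 ± 0.0689 and 0.0223 ± 0.0301 (SD, n = 4). E2f8 fell below the minimum over both clones, and the two-sided exact permutation test gave p = 0.0286, the smallest value that 4 against 4 replicates allow, with no adjustment for the number of genes. The test took no account of clone. Groups without overlap always give this value, so it only restates their order. Added to the test over all genes without a minimum, it gave a limma adjusted p of 0.759. Of the 31-base words of E2f8 transcripts, 9.29% are also in the antisense gene Gm2788, and the other members shared at most 1.79% of theirs with any other gene. Gm2788 had at most 0.131 RPKM in any library, but E2f8 was as scarce in the exon 4 clone. There Gm2788 averaged 0.110 in KO and 0.0318 in rescue, beside 0.101 and 0.0393 for E2f8. In the exon 6 clone it averaged 0.0200 in KO, beside 0.209 for E2f8. Whether the counting used strand is not given, so reads of this pair cannot be told apart.

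**Figure D2:**
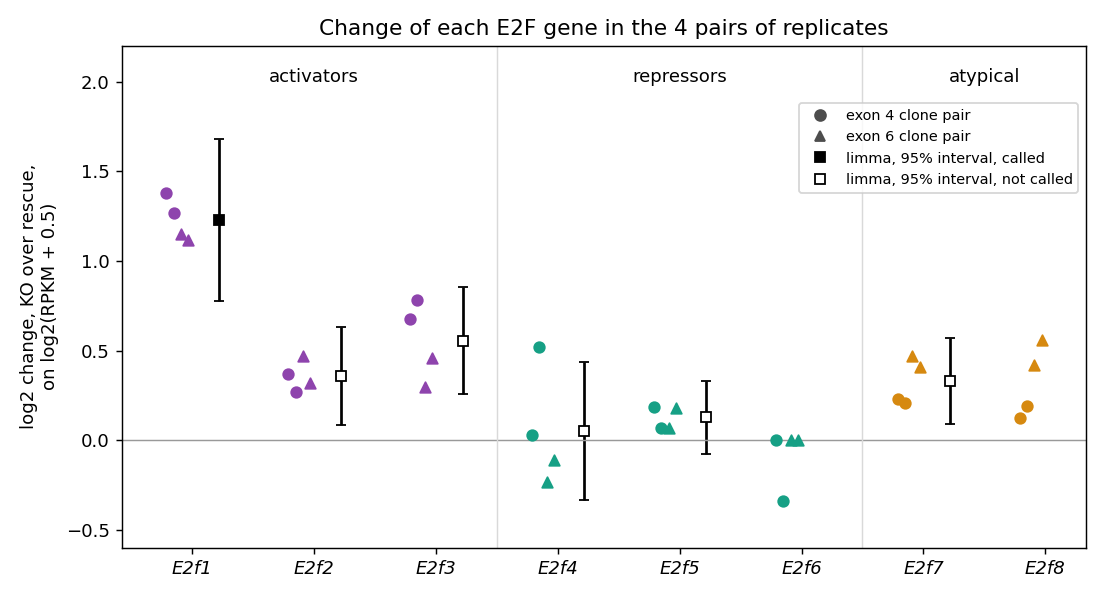
Log2 change of KO over rescue on the log2(RPKM + 0.5) scale for each E2F gene in the 4 pairs of replicates with the same clone and number, beside the limma estimate over both clones with its 95% interval. E2f1 stands between 1.11 and 1.38 in all 4 pairs and is the only member called, E2f4 lies on both sides of 0, and E2f6 and E2f8 have no estimate since they were below the minimum level.

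The make-up of the family was described by the share of its summed RPKM that each class held. These shares are ratios within a library and do not depend on the scale set between libraries, apart from the averaging of the technical pair. In rescue cells the repressors E2f4, E2f5 and E2f6 held 77.3 ± 2.31% of the sum (SD, n = 4), and in KO cells they held 57.9 ± 3.74%. The activators held 21.9 ± 2.05% in rescue, with a range of 20.1 to 24.9%, and 39.4 ± 4.18% in KO, with a range of 36.7 to 45.6%. E2f1 alone went from 11.5 ± 1.37% to 25.2 ± 3.54%, and E2f4 from 71.7 ± 2.95% to 53.7 ± 3.24%. The atypical members held 0.770 ± 0.263% in rescue and 2.76 ± 0.983% in KO. None of these shares overlapped between KO and rescue replicates. They are given without a test. E2f6 entered them with its values as listed, so the repressor share rests almost wholly on E2f4 and E2f5.

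The same sums were also taken as levels. The activators summed to 4.85 ± 1.01 RPKM in KO and 1.98 ± 0.538 in rescue (SD, n = 4), without overlap. The repressors summed to 7.07 ± 0.822 and 7.01 ± 2.08, with overlap. The ratio of activators to repressors was 0.686 ± 0.123 in KO and 0.285 ± 0.0358 in rescue, so that in both genotypes repressor transcripts outweighed activator transcripts.

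**Figure D3:**
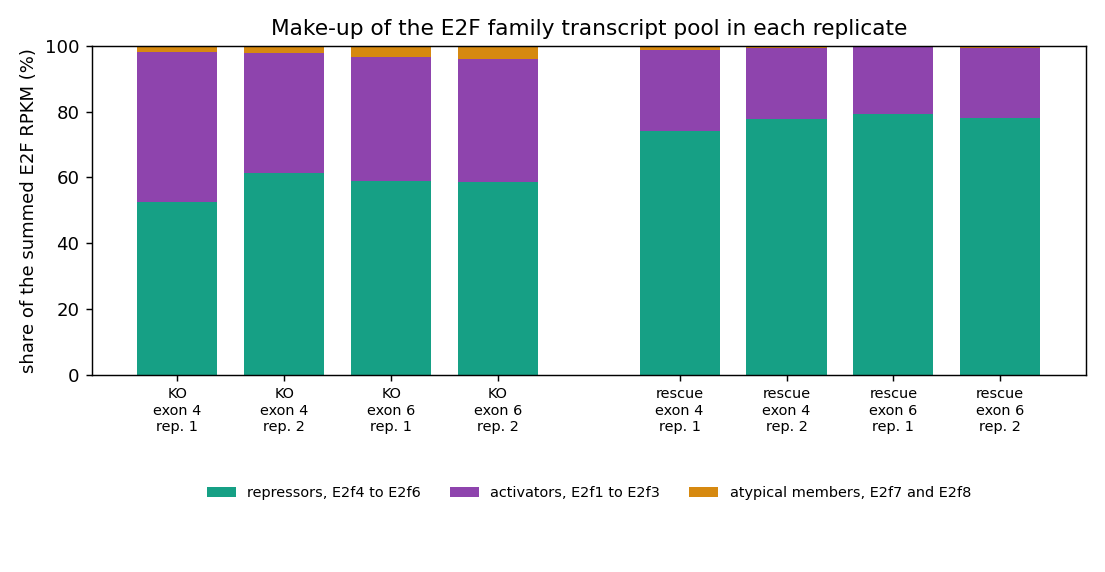
Share in percent of the summed RPKM of all 8 E2F genes held by repressors (bottom), activators (middle) and atypical members (top) in each of the 4 KO and 4 rescue replicates. The repressor share is 52.5 to 61.3% in KO and 74.0 to 79.4% in rescue, and the activator share is larger in every KO bar than in every rescue bar.

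The 2 clones were then compared. In the exon 6 clone alone, 2 against 2 replicates, 1.24% of 15301 genes were called higher in KO and 0.0654% lower. E2f1 was called there with a log2 change of 1.13 and a standard error of 0.10, and its mean was 3.27 in KO and 1.22 in rescue (limma, Benjamini-Hochberg adjusted p = 0.0158). That call was lost without library 3 of each group (limma adjusted p = 0.0613), with no minimum level (0.340) and without any 1 of the 4 replicates (0.0595 to 0.292). The other 5 members tested in this clone were not called. Their changes were 0.49 for E2f8 (limma adjusted p = 0.224), 0.44 for E2f7 (0.248), 0.38 for E2f3 (0.269), 0.12 for E2f5 (0.747) and -0.17 for E2f4 (0.633), which turned to 0.73 with RPKM as deposited. In this clone E2f7 and E2f8 reached the minimum only through KO, so being tested is no support for a difference.

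In the exon 4 clone no gene was called in either direction, 0.0% of 18751 tested, although 426 genes higher and 342 genes lower in KO had an unadjusted limma p under 0.05. E2f1 changed there by 1.32 on the log2 scale with a standard error of 0.36 (limma, Benjamini-Hochberg adjusted p = 0.880). E2f1 and E2f3 were the 2 members of 5 tested with an unadjusted p under 0.05 in this clone, and E2f3 changed by 0.73 (limma adjusted p = 0.988). The values for E2f2, E2f4 and E2f5 were 0.32, 0.27 and 0.13. E2f2 reached the minimum in this clone only through KO, so being tested is no support for a difference.

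The difference of the KO change between clones was tested as an interaction. Lin37 itself averaged 2.33 RPKM in rescue of the exon 4 clone and 4.84 in rescue of the exon 6 clone. In these replicates the contrast of KO and rescue in Lin37 was thus larger in the exon 6 clone, although the interaction did not call it. No gene was called in either direction, and by the same limma test 434 genes with a larger change in the exon 6 clone and 251 with a smaller one had an unadjusted p under 0.05, none of them a member. For E2f1 the change in the exon 6 clone minus that in the exon 4 clone was -0.19, with a 95% interval of -1.18 to 0.80, which is too wide to say that the clones responded alike. It moved to 0.21 without KO replicate 1 of the exon 4 clone, to 0.15 without that clone's rescue replicate 2 and to 0.15 with RPKM as deposited, and to -0.59 without its KO replicate 2 and -0.54 without its rescue replicate 1, so it gives no direction. For E2f4 it was -0.44, from -1.21 to 0.32, and for E2f3 -0.35, from -0.93 to 0.23. Without any 1 replicate these ran from -0.80 to -0.087 for E2f4 and from -0.55 to -0.15 for E2f3, with both ends reached by leaving out a rescue replicate of the exon 4 clone. All 6 tested members had an adjusted p of 0.997 in that limma test.

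Level differences between the clones, over KO and rescue replicates together, were seen across many genes. What part the differing Lin37 level of the rescue cells has in them was not tested. At an adjusted p under 0.05, 6.84% of genes were higher and 6.71% lower in the exon 6 clone, and none of the 6 tested members was among them. E2f5 was 0.27 higher on the log2 scale in the exon 6 clone (limma, Benjamini-Hochberg adjusted p = 0.0788) and E2f4 was 0.44 higher (limma adjusted p = 0.119).

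Sequence upstream of the members was taken from RefSeq promoter windows of GRCm38.p6, which gave 6 of the 8 genes, all but E2f4 and E2f5. The windows were searched on both strands for the E2F motif, written here as TTCCCGC with its variants TTCGCGC and also TTGCCGC together with TTGGCGC, and for TTTGAA, the CHR element to which MuvB binds. An E2F match was in 9.57% of 32851 windows of the same length, 2 or more matches in 1.18%, TTTGAA in 17.9%, and both motifs in 0.953%. E2F matches were found in windows of E2f2, E2f3, E2f7 and E2f8. Of the members whose groups overlapped, only E2f6 has a window. Matches can therefore not be compared between members with and without overlap. The window of E2f1 lies inside the annotated gene, since its RefSeq start is 466 bases past the first base of the gene. It says nothing of the promoter there, and the window of E2f6 had no match. The stretches that hold the matches are shown because these genes had KO and rescue levels that did not overlap, with E2F and CHR letters in capitals, each read 5′ to 3′ along its gene. E2f2 is chr4:136172294-136172323 on the plus strand, E2f3 chr13:29986039-29986123 on the minus strand, E2f7 chr10:110745209-110745358 on the plus strand and E2f8 chr7:48881597-48881716 on the minus strand.
E2f2: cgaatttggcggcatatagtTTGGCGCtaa
E2f3: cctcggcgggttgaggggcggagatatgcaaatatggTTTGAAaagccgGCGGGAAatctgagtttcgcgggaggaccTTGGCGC
E2f7: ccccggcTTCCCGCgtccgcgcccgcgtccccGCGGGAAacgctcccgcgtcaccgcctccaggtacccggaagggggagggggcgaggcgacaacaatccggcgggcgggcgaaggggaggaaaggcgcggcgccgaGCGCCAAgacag
E2f8: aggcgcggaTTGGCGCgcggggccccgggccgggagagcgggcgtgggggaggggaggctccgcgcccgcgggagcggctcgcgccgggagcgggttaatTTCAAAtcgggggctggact
With the annotated start counted as position 0, E2f3 has TTTGAA from position -23, an E2F match on the opposite strand from -11, and TTGGCGC from 18. E2f7 has 3 E2F matches, from -223, -198 and -92, and no TTTGAA in its window. E2f8 has TTGGCGC from -111 and TTTGAA on the opposite strand from -20. A second RefSeq window of E2f2, whose start lies 8388 bases inside the annotated gene, is not shown. It has no E2F match and has TTTGAA from -31, counted from its own RefSeq start. E2f3 also has a second window, with its start 1672 bases inside the annotated gene, and that one has no match of either motif. RPKM per gene does not say which start was used. A match of letters is a description and does not show that a factor was bound.

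The genes whose pattern over the 8 replicates was most like that of a member were listed by Pearson's r of log2(RPKM + 0.5), over the 7550 genes that averaged 1 RPKM or more. The replicates share 2 genotypes and 2 clones, so high values are common, and no test is given. E2f1 was most like Scpep1 (r = 0.979), Psrc1 (0.975), a gene of the mitotic spindle, and Nup93 (0.972), a nuclear pore subunit. E2f2 was most like H2afz (0.981), a histone variant gene, with Rpn2 (0.968) and Mcm7 (0.965) after it. E2f3 was most like Anapc11 (0.985), Atf5 (0.978) and again Scpep1 (0.969). E2f7 was most like Ulbp1 (0.986), the pseudogene Gm11223 (0.973) and Tmem237 (0.966). The genes nearest to E2f4 were Gatad2a (0.991), Ndufaf8 (0.984) and Slc44a2 (0.980), and those nearest to E2f5 were Sqle (0.973) and Sc5d (0.969), both enzymes of sterol synthesis, and Gm4737 (0.965). Among members other than E2f6, r ran from 0.114 for E2f2 with E2f4 to 0.968 for E2f1 with E2f3. Within a class it was also 0.914 for E2f7 with E2f8 and 0.580 for E2f4 with E2f5. Across classes it reached 0.840 for E2f1 with E2f8 and was 0.754 for E2f5 with E2f7.

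None of the 5 E2F partner genes was called, where 1.61% of all genes tested were called higher and 0.083% lower. Of the DP genes, Tfdp1 was at 2.29 ± 0.622 RPKM in KO and 2.14 ± 0.737 in rescue (SD, n = 4), and Tfdp2 at 0.306 ± 0.0561 and 0.224 ± 0.0426. Neither was called (limma, Benjamini-Hochberg adjusted p = 0.931 and 0.746). Of the pocket protein genes, Rb1 was at 0.796 ± 0.293 in KO and 0.821 ± 0.487 in rescue, with a log2 change of 0.02, and Rbl2, which encodes p130, at 0.881 ± 0.109 and 0.731 ± 0.162, with a change of 0.17 (limma adjusted p = 0.984 and 0.752). Rbl1, which encodes p107 and is itself an E2F target, stood at 0.588 ± 0.102 in KO and 0.287 ± 0.0924 in rescue. Its replicates did not overlap and its ratio was 2.05. Its log2 change of 0.47 did not pass over all genes (limma adjusted p = 0.148), and it did without replicate 2 of the exon 4 clone's rescue (0.0366), with the technical replicates as separate libraries (0.0383), after quantile normalization (0.0314) and with RPKM as deposited (0.0107).

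Of 7 genes for the MuvB core and its activating partners, 6 were above the minimum, and in the test over all genes 3 of them were called higher and 1 lower, where 1.61% and 0.083% of all genes were. The lower one was the targeted gene, Lin37, with a log2 change of -2.25. Foxm1, a factor that drives G2 and M phase genes, averaged 3.63 ± 0.489 RPKM in KO and 0.490 ± 0.0271 in rescue (SD, n = 4), a log2 change of 2.05 (limma, Benjamini-Hochberg adjusted p = 6.97e-05). Lin54, the DNA-binding MuvB subunit, changed by 1.24 (limma adjusted p = 0.00268) and Lin9 by 0.72 (limma adjusted p = 0.0142). The call of Lin9 was lost with no minimum level (0.0916) and without any 1 of the 4 exon 6 clone replicates (0.0550 to 0.0955). The median change of the list was 0.40, against -0.03 for all genes tested.

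G1 cyclins, their kinases and the kinase inhibitors set the activity of the pocket proteins. Of 15 such genes 12 were tested, none was called by limma over all genes, and their median change was 0.08. Ccnd2, a D cyclin, had a log2 change of -0.33 and Ccne1, the cyclin of the G1/S switch, one of 0.61, the extremes of the list, with limma adjusted p of 0.368 and 0.144. Ccnd2 turned to 0.63 with RPKM as deposited, and Ccne1 was called there (0.00348) and with the technical replicates as separate libraries (0.0243). Of 14 genes for the Polycomb and histone methyltransferase proteins that work with E2F6, 1 was called higher, L3mbtl2, where 1.61% of all genes were, and the median was -0.02. L3mbtl2 had 1.13 ± 0.0423 RPKM in KO and 0.649 ± 0.0570 in rescue (SD, n = 4), a log2 change of 0.51 (limma, Benjamini-Hochberg adjusted p = 0.0185). Its call was lost without a minimum level (0.0595) and without KO replicate 1 of the exon 4 clone (0.0574), or KO replicate 1 (0.115), KO replicate 2 (0.0955) or rescue replicate 2 (0.0944) of the exon 6 clone. None of 5 germline genes known as E2F6 targets reached the minimum.

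Many textbook E2F targets rose in KO cells. Of 30 such genes 28 were tested, 14 were called higher, where 1.61% of all genes were, and none was called lower, and their median log2 change was 0.75 against -0.03 for all genes. KO was above rescue in all 4 pairs for 24 of the 28. Mcm5, a subunit of the replicative helicase, had 2.66 ± 1.01 RPKM in KO and 0.274 ± 0.158 in rescue (SD, n = 4), a log2 change of 1.99 (limma, Benjamini-Hochberg adjusted p = 0.000373). Ccna2, which encodes cyclin A2, changed by 1.58 and Cdk1, the mitotic kinase, by 1.47 (limma adjusted p = 0.00155 and 0.000408). The list also holds Rbl1 and the E cyclins named above, and Ccne2 had a change of -0.14 (limma adjusted p = 0.811), which turned to 0.21 with RPKM as deposited. Lists of this kind were chosen with results of these data known and are no independent evidence of a direction.

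**Figure D4:**
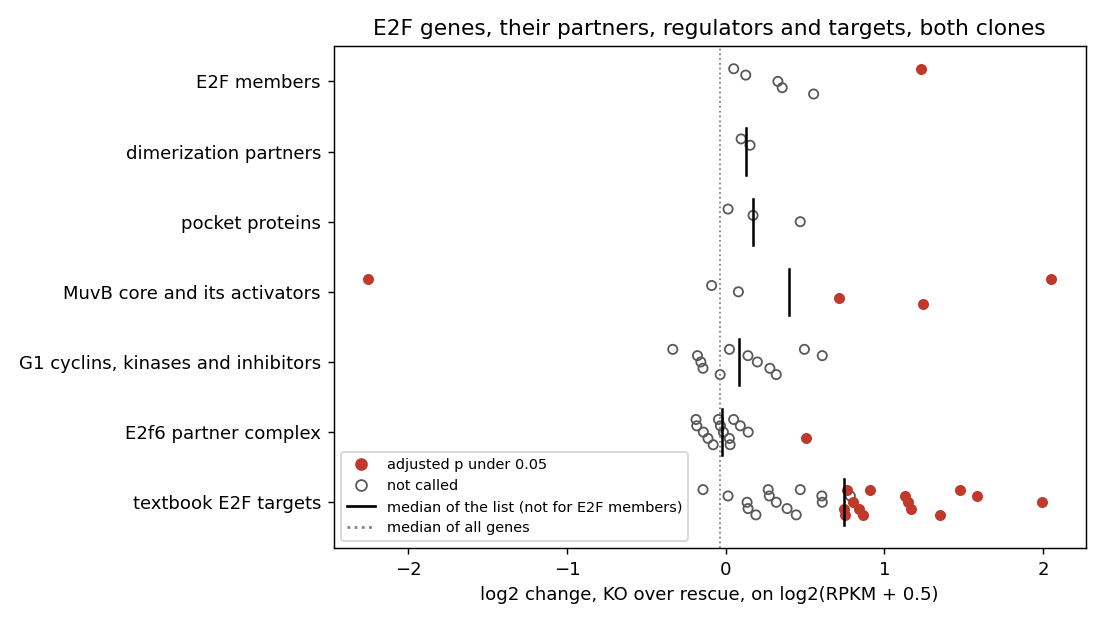
Log2 change of KO over rescue on the log2(RPKM + 0.5) scale for each tested gene of the E2F family and of the lists of partners, regulators and targets, with filled points for an adjusted p under 0.05 in limma, a bar at each list's median and a dotted line at the median of all genes. The median is 0.75 for the textbook targets and 0.08 for the G1 regulators, none is drawn for the E2F members, of which E2f2 and E2f7 were tested only through their KO levels, and Lin37 is the point at -2.25.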

How the data were processed

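RNA of serum-starved NIH3T3 cells was depleted of ribosomal RNA and made into libraries with a kit for human fixed tissue, per the labels. The authors clipped adapters with cutadapt, mapped reads to mm10 with segemehl, counted them per gene with rnacounter and deposited RPKM, one column per library. Picard 1.89 is named in the submitters' processing notes. Each of the 10 columns was matched to a sample by its name, and 0 columns were left unused. Gene names came from GENCODE M21 of GRCm38 (44585 of 45232 entries). Low values were whole multiples of one step, within 5%, for only 33.0 to 53.7% of them, so reads were not recovered, depth is unknown and no counting error is given. Per library, 7920 to 22034 entries were at 0.

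Libraries were rescaled by medians of ratios over 8523 genes, the exon 6 clone's libraries 2 and 3 were averaged, and limma 3.58.1 in R 4.3.3 (lmFit, eBayes with trend) was run on log2(RPKM + 0.5), two-sided, with clone as covariate, for genes averaging 0.1 RPKM or more, with Benjamini-Hochberg adjustment over all genes and a threshold of 0.05. Genes below the minimum had an exact permutation test. The fit was tested on simulated data. Same-numbered KO and rescue replicates deviated together (mean-centred correlation 0.432 in the exon 4 clone, 0.217 in the exon 6 clone), so the numbers were read as pairs. The main fit, which gave the standard errors and p-values unless another setting is named, had no replicate block. The fit with the replicate number as a block kept each limma call of a gene named in the report. Scripts used Python 3.11.15, pandas 2.3.3, numpy 2.4.6 and scipy 1.17.1. Alternatives were another pseudocount, another minimum, deposited RPKM, quantile normalization, no trend, no clone term, the replicate block, other handling of technical replicates and leaving out each replicate.

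The members and lists were chosen with earlier results of these data known. Named genes were all members, DP and pocket protein genes, Lin37, up to 3 called genes with the largest change in each other list, and the 3 nearest genes by r. Lin9, Ccnd2, Ccne1 and Ccne2 were named after their values were seen, as were genes overlapping a member.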

Additional observations from a re-analysis of the deposited data

Results flagged for a closer look

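Within each group of 4 replicates of a member, the lowest and the highest value were checked for a gap to the rest that is large against the group's range. Among the 16 groups, 4 had such a value. A rate of about 1 in 20 by chance would hold for replicates drawn alike. These groups hold 2 clones and some sit at or near 0, so that rate does not apply to them. E2f1 was 0.558 RPKM in replicate 2 of the exon 4 clone's rescue, below the other 3 rescue replicates. E2f6 was 0.0222 RPKM in replicate 2 of the exon 4 clone's KO and 0.160 in replicate 2 of its rescue, where the other replicates were at or close to 0. In such a group any single reading clearly above 0 is flagged. E2f8 was 0.0673 RPKM in replicate 1 of the exon 4 clone's rescue, above the other 3. Of these 4 values, 3 were in replicate 2 of the exon 4 clone.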

How the results depend on the processing

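For single genes under the alternative settings, 569 values kept their direction and their side of the threshold, 21 lost the call, 17 gained it and 18 changed sign. Over both clones, genes higher and lower in KO numbered 171 and 6 with no minimum, 93 higher with a minimum of 1 RPKM, 875 higher with RPKM as deposited, 27 lower with the replicate block and 6 lower without the clone term. Members called over both clones were 0 with no minimum, 5 with RPKM as deposited, where the median of all genes moved to 0.64, and 2 with technical replicates separate. In the exon 6 clone, genes higher were 0 with no minimum, 67 with a minimum of 1 RPKM, 10040 as deposited and 69 without library 3. Genes lower there were 0, 47 and 4 with no minimum, as deposited and without library 3, and members called were 0, 7 and 0. In the exon 4 clone 1 gene was lower with a minimum of 1 RPKM and 1 with the replicate block. The interaction gave 7 genes higher as deposited. Between clones, 539 genes were higher and 500 lower with no minimum, 2484 and 261 as deposited, and 1 member was called as deposited, with quantile normalization and with technical replicates separate. Summed KO levels as deposited were 8.47 RPKM for activators, 12.5 for repressors, 0.671 for atypical members and 21.6 for all 8.

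Leaving out 1 replicate gave 174 to 265 genes higher (174 and 180 without KO replicate 2 or 1 of the exon 6 clone), 4 to 16 lower and 0 to 1 members called over both clones, 0 to 69 higher, 0 to 3 lower and 0 members in the exon 6 clone, and 528 to 1244 higher and 483 to 1847 lower between clones. Among the values recomputed, reversed signs were those of E2f4 (-0.14 to 0.15 over both clones, -0.083 to 0.63 in the exon 4 clone, each without 1 replicate, and 0.73 in the exon 6 clone as deposited), Rb1 (-0.048 to 0.13 without 1 replicate, -0.0070 with quantile normalization, -0.044 without library 3), Tfdp1 (-0.060 to 0.28 without 1 replicate), Ccnd2 and Ccne2 (0.63 and 0.21 as deposited) and, for the difference between clones, E2f1 (-0.59 to 0.21 without 1 replicate, 0.15 as deposited). The cause of these shifts was not tested. The replicate block changed no call of a named gene. Depth is unknown and limits E2f2, E2f6, E2f7 and E2f8 most.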

Other observations

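The technical pair of the exon 6 clone allowed the members to be compared between 2 libraries of one replicate. E2f4 was higher in library 3 than in library 2 in both genotypes, by 0.40 in KO and 0.59 in rescue on the log2(RPKM + 0.5) scale, after rescaling. E2f1 and E2f3 were lower in library 3 in both, by -0.13 and -0.21 in KO and by -0.21 and -0.15 in rescue. E2f7 was higher in library 3 by 0.30 in KO and 0.16 in rescue, and E2f8 by 0.36 in KO and -0.02 in rescue. E2f5 was lower in library 3, by -0.28 in KO and -0.04 in rescue, and E2f2 by -0.12 in both. Set beside the KO change over both clones, the larger technical difference of a member exceeded it for E2f4 (0.05), E2f5 (0.13) and E2f8 (0.32). It came close to it for E2f7 (0.33) and was smaller for E2f1 (1.23), E2f2 (0.36) and E2f3 (0.55). The technical pair is from the exon 6 clone alone. In that clone the changes of E2f8 (0.49) and E2f7 (0.44), both tested only through KO, were larger than their technical differences. Those of E2f4 (-0.17) and E2f5 (0.12) were still smaller in size than theirs.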
